A study of Mus musculus with 6 samples.

Results

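Blood vascular endothelial cells (ECs) of the mouse proximal pulmonary artery (PA) were selected from single cell RNA sequencing libraries on their own transcripts. A droplet barcode was kept with at least 500 UMIs (unique molecular identifiers, each standing for 1 captured RNA molecule), at least 300 detected genes and no more than 20% mitochondrial UMIs. A kept barcode was chosen by 3 conditions on its UMIs. It held at least 3 UMIs of 5 endothelial genes together (Cdh5, Pecam1, Egfl7, Cldn5 and Tie1). These outnumbered by more than 2 to 1 the UMIs of 7 genes of other cell types (Ptprc, Myh11, Cnn1, Pdgfra, Clec3b, Msln and Scgb1a1). It also held at most 2 UMIs of the lymphatic genes Prox1, Mmrn1 and Flt4. Of 15622 kept barcodes, 1730 (11.1%) were members, 88 from young and 1642 from old mice.

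The arteries came from C57BL/6J wild type mice, 1 mouse per library by the ages and sexes given. Young 1 was a male and young 2 a female, both of 3 months. Old 1, old 2 and old 4 were males of 20, 24 and 27 months, and old 3 was a female of 28 months. No transgene or treatment was described, and the groups differed by age. Young mice of the study came from Jackson Laboratory, and old ones from there or from the NIA aging colony. The source of the mice could thus also differ between the groups. The main PAs were excised with surrounding tissue, chopped and digested with collagenase and elastase, so ECs of small vessels next to the artery could enter a library. No sort for ECs was described.

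ECs line every vessel and control tone, leakiness, clotting and the entry of leukocytes. In arteries they are exposed to strong pulsatile flow, use Notch and Sox17 to hold an arterial program, couple to each other through connexins such as Gja5 and Gja4, and add to the elastic matrix beneath them. In capillaries they carry other equipment, such as Gpihbp1, which anchors lipoprotein lipase, and Cd36 and Fabp4, which take up and carry fatty acids.

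Members were few and shallow in 3 libraries and many and deep in the other 3. Young 1 held 63 members (2.31% of its kept barcodes, 95% Wilson interval 1.81% to 2.95%), young 2 held 25 (2.67%, 1.82% to 3.92%) and old 2 held 68 (2.37%, 1.87% to 2.99%). Old 1 held 538 (43.6%, 40.9% to 46.4%), old 3 held 766 (18.8%, 17.7% to 20.1%) and old 4 held 270 (7.11%, 6.34% to 7.97%). Old 2 was at the level of both young libraries and the other old libraries were above them, so the groups overlapped. Intervals here cover counting error only.

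The mean share of members in the old libraries was 18.0% ± 18.4 (SD, n = 4) and that in the young libraries 2.49% ± 0.254 (SD, n = 2). They differed by 15.5 percentage points (two-sided exact permutation test over libraries, p = 0.267). With 2 young libraries against 4 old ones this test cannot give a p below 0.133. Its p is the rank of the difference among all assignments of whole libraries to the groups. Without old 1 the difference was 6.94 points, and with every kept barcode thinned to 500 UMIs before the selection it was 6.79 points (exact permutation test, p = 0.4 for both). In the set of libraries young 1, young 2 and old 2, old 2 was 0.123 points below the young mean.

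These 3 libraries also stood apart from the rest in another way. Kept barcodes occurred in both libraries 156 times for young 1 with young 2, 131 times for young 1 with old 2 and 215 times for young 2 with old 2, against at most 4 times for any other pair. No barcode was a member in 2 libraries, and 12 members had a barcode that was kept in another library. Median UMIs per member were 661 in young 1, 719 in young 2 and 707 in old 2, but 1986.5 in old 1, 3093 in old 3 and 3129.5 in old 4. One UMI in the summed members was therefore worth 22.1 CPM (counts scaled to the total UMIs of a library's members) in young 1 and 49.6 in young 2, against 0.345 in old 3. Old 2 was the only old library in this set and at this depth. Age can be separated from set and depth only through it, and for most of what follows age, library set and depth cannot be told apart.

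Transcripts of the sex chromosomes went against the sex given for old 1. Its members held 860 UMIs of Xist, the RNA that silences 1 X chromosome in female cells, beside 71 of Ddx3y, 4 of Uty and 0 of Eif2s3y and Kdm5d on the Y chromosome. The members of old 4, also given as male, held 3 UMIs of Xist, 166 of Ddx3y and 113 of Uty, and those of the female old 3 held 1917 of Xist and 0 of the Y genes. Whether old 1 came from a female or held cells of more than 1 mouse was not tested. The share of members, the arterial share and the gene counts by age are also given without old 1.

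**Figure D1:**
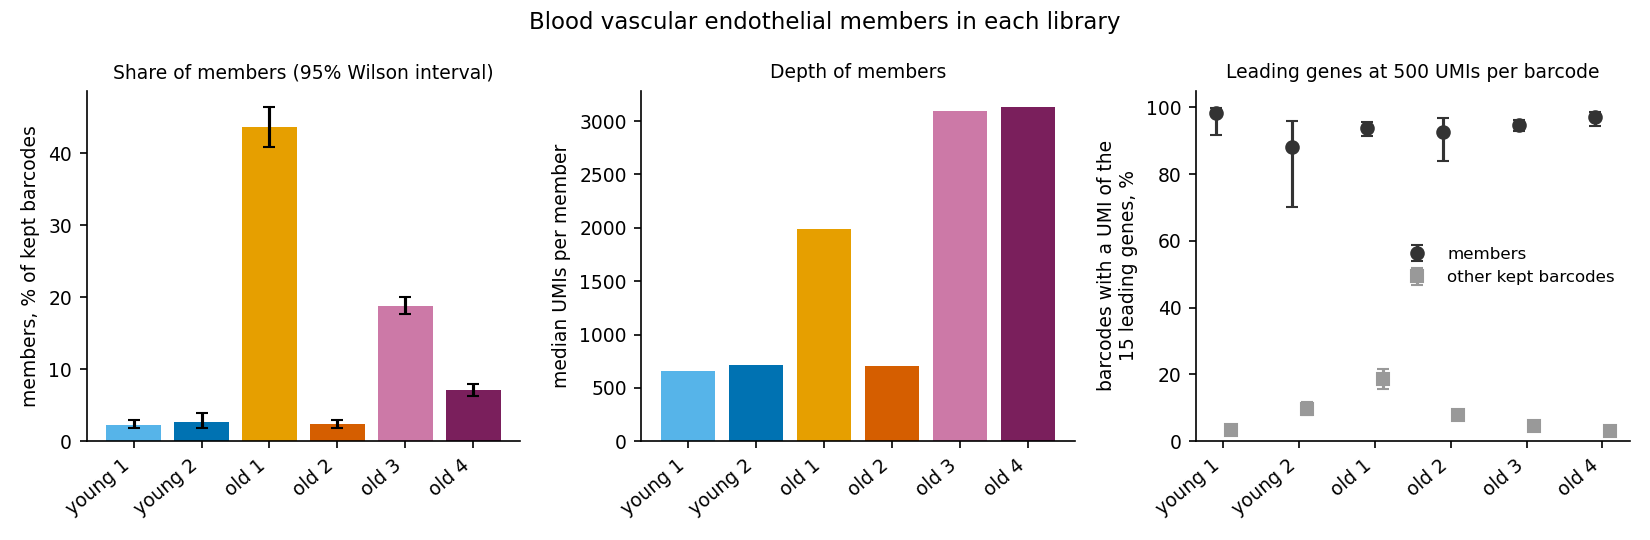
Members in each library. The left panel plots members as a percentage of kept barcodes with 95% Wilson intervals, the middle panel the median UMIs per member, and the right panel the percentage of members (dark circles) and other kept barcodes (grey squares) with a UMI of any of the 15 leading genes after thinning to 500 UMIs, with 95% Wilson intervals. Old 2 sits with the young libraries at 2.37% of kept barcodes and 707 UMIs per member, and in every library at least 88.0% of members held a leading gene against at most 18.5% of other barcodes. The 15 genes were picked for a high ratio between these same barcodes, so the right panel is a description.

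Endothelial genes that the selection did not use were also high in members. The 15 genes with the largest ratio of CPM in members to CPM in other kept barcodes were Clec14a, Vwf, Gkn3, Nos3, Myct1, Sox7, Mmrn2, Sox18, Pkn3, Ptprb, Gja5, Dll4, Rasip1, Ccm2l and Adgrl4. They include the clotting factor carrier Vwf (53.0 times the level in other barcodes), the nitric oxide synthase of endothelium Nos3 (45.3 times), the endothelial transcription factors Sox7 (44.7 times) and Sox18 (42.1 times), and the phosphatase Ptprb (39.2 times), which acts on the angiopoietin receptor. Vwf stood at 4007 CPM in young 1, 2033 in young 2, 2334 in old 1, 2213 in old 2, 3162 in old 3 and 2993 in old 4. All old libraries lay between the young pair. These ratios come from the contrast by which members were chosen and are a description.

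At a common depth of 500 UMIs per barcode, 98.4% of members of young 1, 88.0% of young 2, 93.7% of old 1, 92.6% of old 2, 94.8% of old 3 and 97.0% of old 4 held at least 1 UMI of these 15 genes. Among other kept barcodes, lymphatic ones aside, the same share ran from 3.14% in old 4 to 18.5% in old 1. The 15 genes were picked for their high ratio between these same barcodes, so the shares are a description too.

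Members near the limits of the selection were as follows. There were 142 members at exactly 3 endothelial UMIs and 143 barcodes just outside at 2, and 249 barcodes with enough endothelial UMIs were left out for their UMIs of other cell types. On the lymphatic side 39 members held 2 UMIs, 21 barcodes just outside held 3, and 146 endothelial barcodes in all exceeded the limit, all but 1 of them in old 1, old 3 and old 4. At least 1 UMI of the 7 genes of other types was present in 409 members. Scrublet or its stand-in marked 17 members as likely doublets, and these were kept.

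The arterial program dominated. A member was called arterial with at least 2 UMIs of Gja5, Gja4, Bmx, Sox17, Hey1, Dll4, Efnb2, Sema3g, Mecom, Jag1 and Stmn2 together and more of these than of the microvascular genes Gpihbp1, Aplnr, Kit, Sema3c, Car4, Ednrb, Fibin, Prx, Kdr and Rgcc, and microvascular in the opposite case. Over all UMIs, 1406 members were arterial, 170 microvascular and 154 unassigned, and in 152 the arterial and microvascular sums were within 1 UMI of each other. Such a class is a range of UMIs and not a cell type.

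Of the 170 microvascular members 141 came from old 3. That library held them beside 599 arterial members, old 4 held 18 beside 244, old 1 held 10 beside 474 and old 2 held 1 beside 33. Young 1 held 0 of 63 members, which allows a share of up to 4.76%, and young 2 held 0 of 25, which allows up to 12%. The share was 6.67% in old 4 (95% Wilson interval 4.26% to 10.3%), 18.4% in old 3 (15.8% to 21.3%) and 1.86% in old 1 (1.01% to 3.39%). Members of these libraries were deeper, so the shares were also read at 500 UMIs per member. They were then 12.01% in old 3 (9.90% to 14.5%), 5.93% in old 4 (3.68% to 9.41%), 0.743% in old 1 (0.289% to 1.90%) and 4% in young 2 (1 of 25, 0.710% to 19.5%). Old 2 held 0 of 68, which allows up to 4.41%, and young 1 again 0 of 63. At this depth the share of old 3 lay within the interval of young 2, so a difference from young 2 was not detectable.

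With every member thinned to 500 UMIs, 891 were arterial, 113 microvascular and 726 unassigned, and in 512 the sums were within 1 UMI of each other. The arterial share of assigned members was then 100% in young 1 (36 of 36), 98.2% in old 1, 100% in old 2, 82.9% in old 3 and 91.0% in old 4. Young 2 had 9 assigned members, 8 of them arterial, and was left out for having fewer than 10. The old mean was 93.0% ± 7.78 (SD, n = 4), a difference of -6.98 points from young 1, and with 1 young library no p below 0.4 was possible (exact permutation test, p = 0.8). On all UMIs the difference was -7.73 points with both young libraries at 100% (exact permutation test, p = 0.133, the smallest possible). The thinned difference was -8.70 points without old 1 and -3.61 points without old 3.

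**Figure D2:**
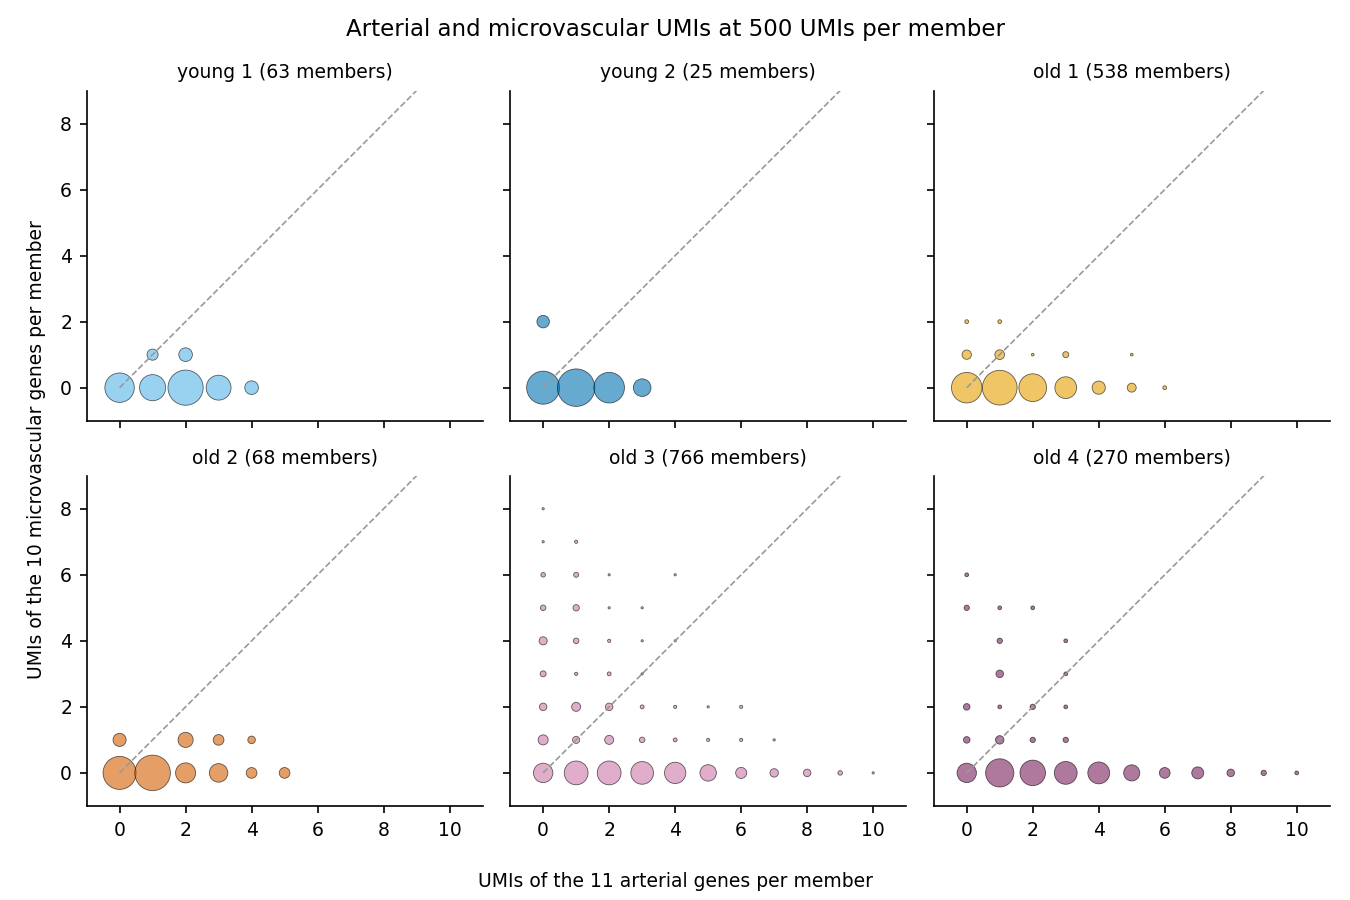
UMIs of the 11 arterial genes (horizontal axis) and the 10 microvascular genes (vertical axis) per member after thinning to 500 UMIs, 1 panel per library, with circle area proportional to the share of that library's members at each point and a dashed line of equality. Members above the line at 3 or more microvascular UMIs appear in old 3 and old 4, and most members of every library lie at 0 microvascular UMIs.

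Genes that were not used for the classes separated them in old 3, where at least 20 members of each class were found. Arterial members carried Vwf (3783 CPM against 74.6 in microvascular members), the Wnt antagonist Sfrp1 (632 against 4.81), Arhgap24 (454 against 2.41), the secreted protein Cytl1 (2562 against 62.6) and elastin, Eln (1742 against 43.3). The ephrin ligand Efna5 (1689 against 43.3), the ligand Bmp4 (522 against 7.22) and the glypican Gpc6 (1277 against 40.9) had the same direction. The classes were cut from the same cells, so these are descriptions.

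Microvascular members of old 3 were high in Fabp4 and Cd36, which handle fatty acids. Fabp4 stood at 20075 CPM against 487 in arterial members, Cd36 at 3805 against 80.0, and the transcription factor Tcf15 at 847 against 9.58. Cd300lg (886 against 12.1), the protease inhibitor Timp4 (582 against 6.66), Ablim3 (739 against 17.5) and the transcription factor Dach1 (753 against 18.7) were also higher. Each of these genes had UMIs in at least 92 of the 141 microvascular members. Retnlg, a product of neutrophils, also met the rule for named genes (450 against 3.33), but its 187 UMIs in microvascular members all lay in 1 member, in the subcluster led by S100a9 and S100a8, and without the members of that subcluster it stood at 0.

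Matrix genes differed in direction between the classes in old 3. The collagen IV chains Col4a1 (1102 CPM in microvascular, 227 in arterial members) and Col4a2 (765 against 92.9) and the matrix protein Sparc (1658 against 448) were higher in microvascular members. Other basement membrane genes were nearer each other, with the laminin chain Lama4 at 375 against 161, Nid1 at 188 against 94.96 and the proteoglycan Hspg2 at 549 against 461, while the laminin chain Lama5 was at 72.2 against 110. Elastin and its companions were higher in arterial members, as with Mgp, the inhibitor of vessel calcification (4091 against 193), the elastic fibre protein Fbln5 (327 against 38.5), and Bgn, a small proteoglycan (1140 against 91.5). The vasoconstrictor precursor Edn1 (166 against 2.41), the angiotensin converting enzyme Ace (386 against 14.4) and the adhesion molecules Selp (252 against 7.22) and Vcam1 (504 against 40.9) were also higher in arterial members. Not every gene of the arterial list followed the class, since Sox17 (217 in microvascular against 82.0 in arterial) and Dll4 (181 against 42.5) went the other way, and without Sox17 and Mecom the thinned arterial share of old 3 was 70.8%.

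With at least 10 members of each class in place of 20, a limit chosen after the data were seen, old 1 and old 4 could be set beside old 3. In old 4, Cytl1 stood at 4327 CPM in arterial and 0 in 18 microvascular members, Mgp at 5359 against 135, and Cd36 at 62.0 against 4761. In old 1 the 10 members called microvascular kept arterial transcripts, with Cytl1 at 2194 CPM, Mgp at 691 and Cd36 at 40.6, which is 1 UMI. The water channel Aqp1 was higher in microvascular members of all 3 libraries, at 1056 against 475 CPM in old 1, 4019 against 619 in old 3 and 4980 against 483 in old 4. The microvascular members of old 1 thus did not carry the Cd36 and low Cytl1 pattern of the other two libraries.

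Genes that mark the vascular bed were read for the microvascular members of old 3. Of a list of transcription factors and lipid genes used by heart and other systemic capillaries, Tcf15 (847 CPM), Meox2 (159 against 3.75 in arterial members), Meox1 (31.3 against 2.92), Fabp5 (426 against 145), Cd36 and Fabp4 were higher than in arterial members. Gata6 (16.8 against 436), Gata4 (16.8 against 40.8) and Hand2 (2.41 against 27.9) were lower. Of a list of genes used in lung, Tbx3 stood at 347 against 5.83 CPM and Tmem100 at 93.9 against 44.1, while Hpgd stood at 7.22 against 24.6 and Tbx4 at 0. Tbx5 (4.81 against 0.416), Scn7a (0 against 7.91) and Tbx2 (0 against 0.416) had at most 19 UMIs in a class. Foxf1, the remaining defining lung factor, was listed at 0 in every member, in all other kept barcodes and in barcodes with under 100 UMIs, so its absence from members could not be read. The vessels from which these members came were not tested.

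Clustering of the members on their variable genes gave 9 subclusters, of which subclusters 1 and 5 were nearly those of a library or a set of libraries. Transcripts of mitochondria or blood cells were among the leading genes of these and of subclusters 7, 8 and 9. Subcluster 1 held 509 members, 502 of them from old 1 (93.3% of that library), and was led by Gm7618, Gm11290, mitochondrial transfer RNAs and the stress gene Gadd45b. Subcluster 5 held 59 of 63 members of young 1, 21 of 25 of young 2 and 59 of 68 of old 2, and 17 from the other libraries. These subclusters cannot be told apart from their libraries.

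Subcluster 5 was led by the immunoglobulin genes Ighm (9204 CPM against 12.9 in other members) and Iglc2, by the B cell receptor chain Cd79a, and by Gm10800. Of its 1668 UMIs of Ighm, 1542 lay in 6 members of old 3 and 120 in old 2, and 1 member held 1318. Its UMIs of Gm10800 lay mostly in young 1 (107), young 2 (65) and old 2 (32). The B cell transcripts came from few members: 17 of 1730 members held at least 3 UMIs of Cd79a, Cd79b, Ms4a1, Ighm and Igkc, 3 of them in young 1, 1 in young 2, 3 in old 2, 9 in old 3 and 1 in old 4. Summed over members this list stood at 399 CPM in young 1, 149 in young 2, 10.8 in old 1, 2250 in old 2, 662 in old 3 and 8.44 in old 4, with Ighm the most abundant and Igkc at 0. The summed B cell list thus did not set young 1, young 2 and old 2 apart from the others. Members with at least 3 such UMIs were a larger part of these libraries, though at most 3 in each. They were 3 of 63, 1 of 25 and 3 of 68, against 0 of 538, 9 of 766 and 1 of 270 in old 1, old 3 and old 4. Without Ighm the list stood at 221 CPM in young 1, 149 in young 2, 9.26 in old 1, 54.9 in old 2, 111 in old 3 and 0 in old 4. The predicted gene Gm10801 was higher in young 1 (9100 CPM), young 2 (19142) and old 2 (2780) than in old 1 (129), old 3 (343) and old 4 (64.7).

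Subclusters 2 and 6 were made up mostly of arterial members of old 3 and old 4, libraries that also had arterial members in other subclusters. Subcluster 2 (453 members, 450 called arterial) was led by Arsj, Nos1ap, the short chain collagen Col8a1, the growth factor Vegfc, the semaphorin Sema3g and the connexin Gja5. Within old 3 its Gja5 stood at 694 CPM against 385 in subcluster 6, and within old 4 at 539 against 462. Subcluster 6 (140 members, all called arterial, 100 of them in old 4) was led by Ecrg4, Ccn2, which cells make under stretch, the Wnt antagonists Frzb and Sost, Bmp6 and Eln.

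Within old 3 and old 4, Ccn2 and Bmp6 had the same order between these subclusters and Eln did not. Ccn2 stood at 1760 CPM in subcluster 6 against 261 in subcluster 2 within old 3, and at 428 against 67.4 within old 4. Bmp6 stood at 2813 against 1212 in old 3 and at 2140 against 1472 in old 4. Eln stood at 1893 against 2285 in old 3 but at 4450 against 3763 in old 4. Smooth muscle transcripts were 338 CPM in subcluster 6 and 128 in subcluster 2, and their part in it was not tested.

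Subcluster 3 (183 members, 156 called arterial) was led by Fgf14, Epha7, the cardiac transcription factor Tbx20, Tmem108, Npr3, which clears natriuretic peptides, and the matrix protein Postn. Endocardial ECs line the heart chambers and valves. Of the 5 endocardial markers listed for the analysis, Npr3, Tmem108 and Gata4 were high in it, at 322, 271 and 183 CPM, against 0.666, 0.666 and 1.33 in subcluster 2. Nfatc1 stood at 101 CPM, between the 74.0 of subcluster 2 and the 148 of subcluster 1, and Hapln1 at 4.39. The list used for summed levels also holds Cdh11, at 306 CPM against 27.3 in subcluster 2. Within libraries, Npr3 in subcluster 3 was 372 CPM in old 1, 284 in old 3 and 383 in old 4, so that 3 libraries shared it, while Postn was 697, 172 and 5.98. Its members kept Vwf and Cytl1, at 3274 and 3299 CPM in old 3, and fibroblast markers summed to 3396 CPM, above the 433 of subcluster 2. No cell type name was given to it.

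Subcluster 4 (182 members) was the microvascular group, with 147 members called microvascular. It drew 157 members from old 3, 24 from old 4 and 1 from young 1, and was led by Cd36, Gpihbp1, Fabp4, Rgcc, Tcf15 and Kdr, the main receptor for VEGF. Gpihbp1 stood in it at 1463 CPM in old 3 and 1176 in old 4, against 2.32 and 0 in subcluster 2. The arterial and venous marker Vwf was at 124 and 181 CPM in the same cells. Cd36 stood at 3563 CPM in old 3 and 4291 in old 4, Fabp4 at 18235 and 22141, and Tcf15 at 752 and 776. The leading genes were ranked on both libraries together, with most members from old 3.

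The other subclusters were small. Subcluster 7 (49 members) was led by few genes of low level and by mitochondrial transcripts, with mt-Cytb at 29053 CPM against 7396 in other members. Subcluster 8 (32 members, 7 marked as doublets) was led by the neutrophil genes S100a9 and S100a8 and the macrophage genes Lyz2 and C1qa, and had the highest median depth, 7622.5 UMIs. Subcluster 9 (26 members, 24 of them in old 3) was led by hemoglobins, with 277624 CPM of Hbb-bs.

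**Figure D3:**
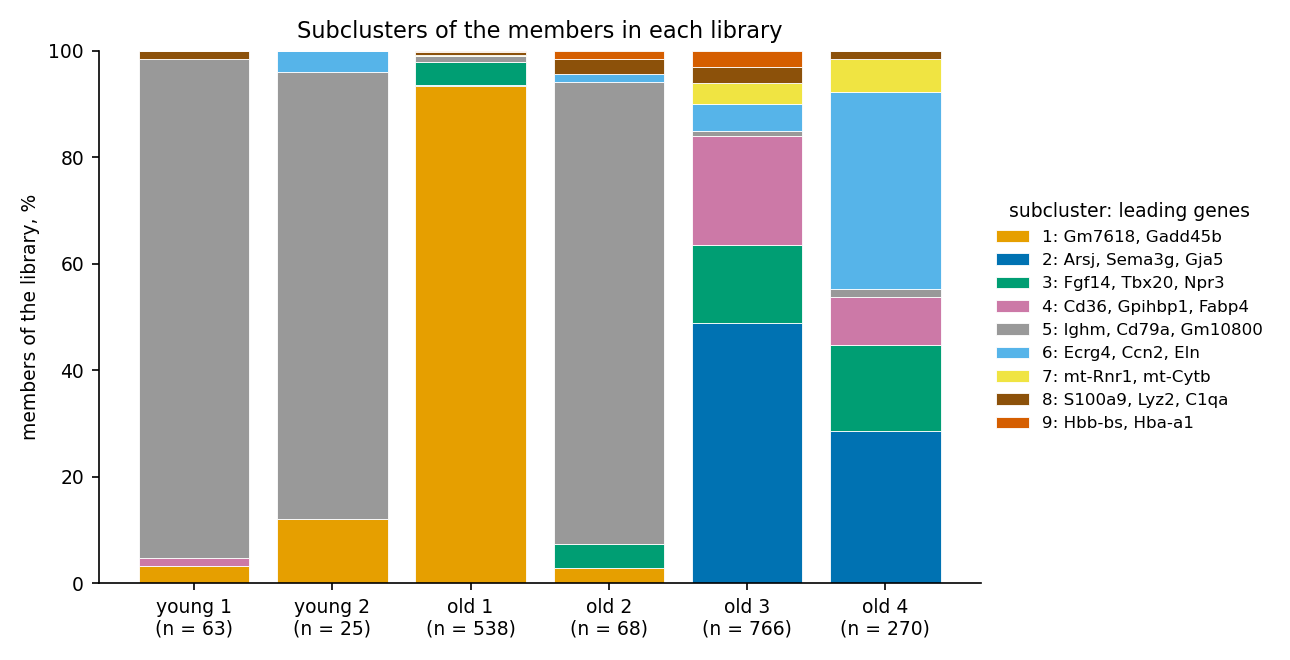
Percentage of each library's members (vertical axis) in each of 9 subclusters, named by leading genes. Subcluster 1 makes up 93.3% of old 1, subcluster 5 makes up 93.7% of young 1, 84% of young 2 and 86.8% of old 2, and the remaining subclusters lie mostly in old 3 and old 4.

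Program levels were then read per library as CPM summed over lists of genes. UMIs were counted at transcript ends, so levels were not scaled by length. The arterial list stood at 3210 CPM in young 1, 2480 in young 2, 2778 in old 1, 2524 in old 2, 4683 in old 3 and 5188 in old 4. It was highest in old 3 and old 4, and the groups overlapped. The microvascular list stood at 133, 149, 147, 366, 923 and 409 CPM in the same order, with old 1 between the young libraries, so these groups overlapped too. Without Kdr, its most abundant gene, every old library was above both young ones, from 126 to 667 CPM against 111 and 49.6, which rest on 5 and 1 UMIs. Free RNA, read from barcodes with under 100 UMIs, held the full microvascular list at 182, 135, 159, 116, 240 and 143 CPM in the same order. This was above the members in young 1 and old 1, so their levels could not be read as expression by ECs.

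The matrix of large arteries stood at 26413 CPM in young 1, 17307 in young 2, 16420 in old 1, 12292 in old 2, 14432 in old 3 and 21569 in old 4, and the groups overlapped. Mgp was lower in every old library, at 6509 and 5653 CPM in young 1 and young 2 and 4205, 3110, 3434 and 5073 in old 1 to old 4. Eln ranged widely in old libraries, at 483 CPM in old 1, 567 in old 2, 1453 in old 3 and 3430 in old 4, on both sides of the 1107 and 744 in young 1 and young 2. Cytl1 ran from 2148 in old 3 to 6908 in young 1.

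**Figure D4:**
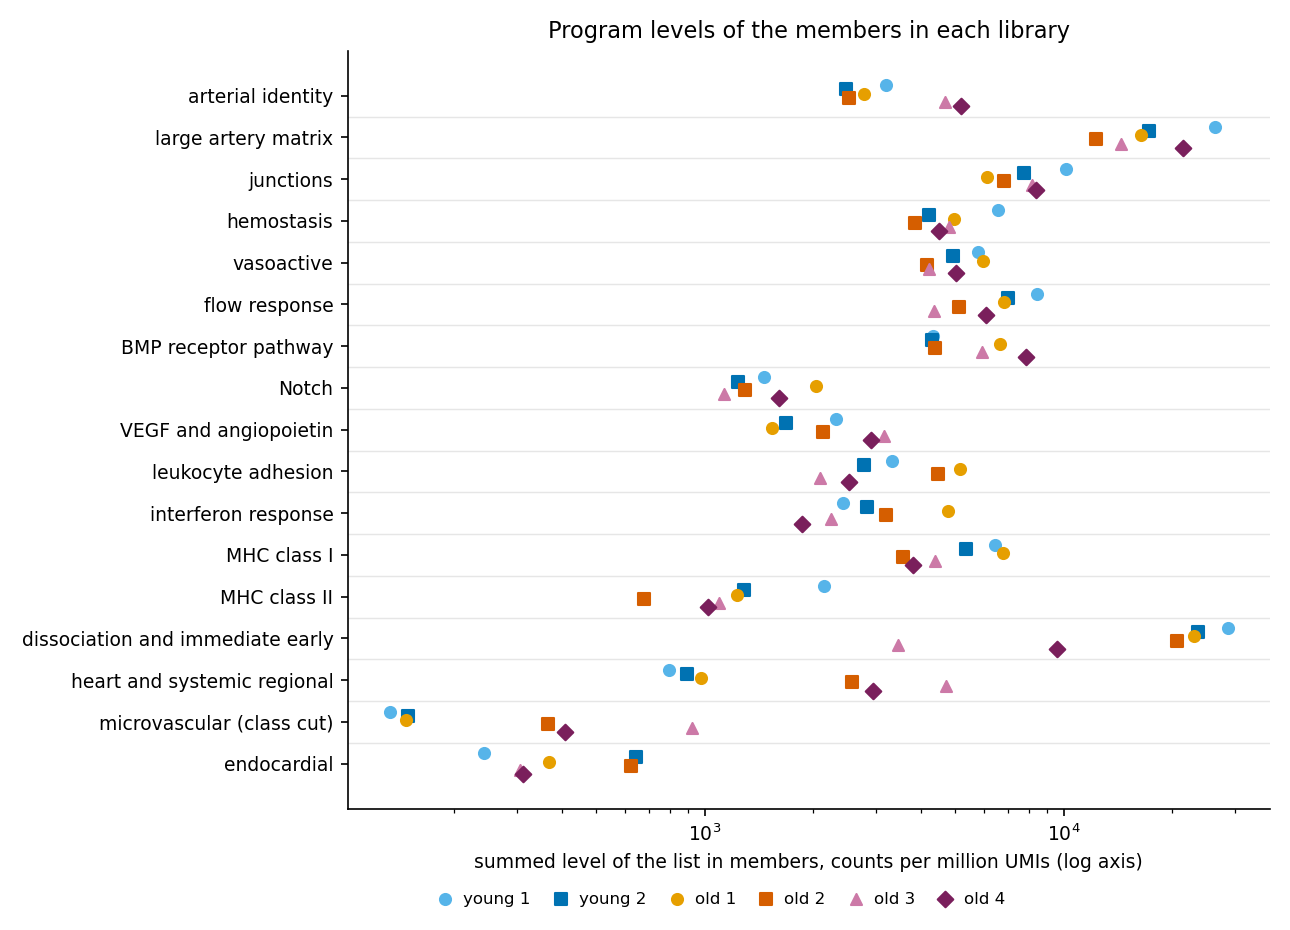
Summed level of 17 gene lists in the members (horizontal log axis, CPM) for each library, with 2 young libraries in blue and 4 old libraries in warm colours. The immediate early list runs from 3460 CPM in old 3 to 28694 in young 1, the microvascular list is highest in old 3 at 923, and the BMP receptor list is higher in old 1, old 3 and old 4 than in the young libraries and old 2.

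Genes of dissociation and the immediate early response, which cells switch on within minutes of stress, differed widely between libraries. Their sum was 28694 CPM in young 1, 23704 in young 2, 23164 in old 1, 20670 in old 2, 3460 in old 3 and 9566 in old 4. Every old library was below both young ones, but old 1 and old 2 lay much nearer the young libraries than old 3. Without Fosb, the most abundant of them, old 1 stood at 20418 CPM, above the 20015 and 18696 of the young libraries, and the groups overlapped. Fos was also below both young libraries in every old one and lowest in old 3, at 5380 and 5653 CPM in young 1 and young 2 and 3627, 4573, 232 and 1587 in old 1 to old 4. Handling of the tissue was not tested as a source.

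The receptor complex for BMP9 and BMP10 (Bmpr2, Acvrl1 and Eng), its Smads and their targets keep pulmonary arterial endothelium quiescent. The list stood at 4339 CPM in young 1, 4314 in young 2, 6634 in old 1, 4390 in old 2, 5945 in old 3 and 7847 in old 4. All old libraries were above both young ones, old 2 by little, and this order held without Id3, the most abundant gene. Within it the ligand Bmp6 stood at 399 and 595 CPM in young 1 and young 2 and at 418, 421, 1092 and 1647 in old 1 to old 4. The inhibitory Smad6 stood at 88.6 and 248 CPM in young and at 239, 146, 566 and 853 in old libraries. Both were high in old 3 and old 4, and old 1 and old 2 overlapped the young pair.

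MHC class II genes, which present peptides to helper T cells, stood together at 2148 CPM in young 1, 1289 in young 2, 1233 in old 1, 677 in old 2, 1097 in old 3 and 1020 in old 4. All old libraries were below both young ones, old 1 by little. Free RNA, read from barcodes with under 100 UMIs, held these genes at 761 CPM in young 1, 1430 in young 2, 1237 in old 1, 1096 in old 2, 2228 in old 3 and 689 in old 4. The level in members was below that of free RNA in young 2, old 1, old 2 and old 3, so it could not be read there as expression by ECs. Among subclusters the list was highest in 8 and 5, those led by myeloid and B cell genes, at 8543 and 6362 CPM. Their part in the order between groups was not tested.

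Flow responsive genes stood from 4344 CPM in old 3 to 6810 in old 1, against 8458 and 6992 in young 1 and young 2. This order rested on Dusp1, the most abundant gene of the list, which is also in the immediate early list. Without it the list stood at 5934 and 5554 CPM in young and 5647, 3841, 4030 and 5312 in old libraries, and the groups overlapped. Within this list Klf2, the main flow induced transcription factor, overlapped between the groups, with 1550 and 1141 CPM in young and 1098, 622, 1217 and 1248 in old libraries. The lists for junctions, hemostasis, vasoactive genes, Notch, VEGF and angiopoietins, leukocyte adhesion, MHC class I, interferon response, senescence, oxidant defence, venous identity, endocardial identity, general capillaries and aerocytes (the gas exchange capillary cells of the lung) overlapped between the groups. The levels of the list for heart and systemic capillaries (from 978 CPM in old 1 to 4703 in old 3, against 797 and 893 in young) were above both young libraries in every old one. Without Fabp4 they were 487 and 793 CPM in young and 731, 1098, 1395 and 1272 in old libraries, and the groups overlapped. Free RNA held the full list at 886 and 1039 CPM in young and at 752, 465, 565 and 696 in old libraries. This was above the members in both young libraries, so their level could not be read as expression by ECs. The lung list ran from 28.5 to 135 CPM in old libraries against 22.1 and 0 in young ones, which is 1 and 0 UMIs. Free RNA held this list at 132 and 90.8 CPM in young and at 91.2, 80.0, 113 and 71.1 in old libraries, above the members in both young libraries, old 1 and old 4. A count of 0 in young 2 allowed up to 149 CPM, so a difference from it was not detectable. Proliferation (from 88.0 to 169 CPM, against 177 and 248) and mesenchymal transition (from 3200 to 3658 CPM, against 3963 and 4116) were below both, and each overlapped between the groups without its most abundant gene, Pcna and Vim. The mesenchymal list stood in free RNA at 935 and 880 CPM in young and at 4065, 752, 4895 and 5668 in old libraries, above the members in old 1, old 3 and old 4. Leaving out the most abundant gene was chosen after the data were seen.

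Transcripts of other cell types in members also differed between libraries. Hemoglobins stood at 177 CPM in young 1, 397 in young 2, 2063 in old 1, 26249 in old 2, 21725 in old 3 and 24.4 in old 4, and 615 of 766 members of old 3 held at least 3 UMIs of them against 0 in old 4. Fibroblast markers ran from 512 CPM in old 2 to 1100 in old 3, with Dcn the most abundant, and smooth muscle markers from 22.1 in young 1 to 645 in young 2. Macrophage markers stood at 22.1 CPM in young 1 and 49.6 in young 2, which is 1 UMI each, and at 111, 604, 377 and 412 in old 1 to old 4, above both young libraries in every old one, with Lyz2 the most abundant. Airway markers ran from 58.0 in old 3 to 744 in young 2, with Scgb1a1 the most abundant, lymphatic markers from 299 in old 3 to 1141 in young 2, with Lyve1 the most abundant, and T and NK, pericyte, alveolar, mesothelial and cardiomyocyte markers were at most 66.4 CPM in any library. Platelet markers were at 0 in both young libraries and at most 165 CPM, in old 2. Alveolar and cardiomyocyte markers were also at 0 in both young libraries and at 1 UMI or more in every old one, and mesothelial markers were at 3 and 1 UMIs in the young libraries and lower in CPM in every old one. Macrophage markers were below their free RNA level in members of every library but old 2. Hemoglobins and airway markers were below it in members of every library, with hemoglobins at 101848 CPM in free RNA of old 3. Fibroblast markers were below it in old 1 to old 4 and above it in young 1 and young 2. The part of all these transcripts in the results was not tested.

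Old and young libraries were compared gene by gene on UMIs summed over members. Of 6055 genes tested, 0 passed an adjusted p of 0.05 (0.0%) in edgeR's quasi-likelihood test with Benjamini-Hochberg adjustment, and 0 passed in DESeq2. At an unadjusted p under 0.05, 325 genes were higher in old (5.37% of those tested) and 57 lower (0.941%), all beyond 2-fold, and DESeq2 gave 117 and 65. Of the 382 genes in edgeR, 200 had 0 UMIs in both young libraries and 336 had fewer than 10. The filter asked for a count in over 5% of members in at least 3 libraries. The 4 old libraries could meet it alone and the 2 young ones could not. Of the 6055 genes tested, 389 had 0 UMIs in young members and could only come out higher in old. Part of the split between higher and lower genes, here and in the shares of all genes tested given below, was thus set by the filter. Without TMM normalization, the scaling of libraries to each other, 234 were higher and 101 lower, and the median log2 fold change of all genes went from 0.33 to 0.18. With the set of libraries that share barcodes as a covariate, 151 were higher and 109 lower. Without old 1 they were 218 and 130, with a median log2 fold change of 0.09. They were 89 and 34 without old 3, 99 and 34 without old 4, 197 and 30 without young 1, 174 and 77 without young 2, and 383 and 95 without old 2. With 1 young library left the fit took its spread from the old libraries alone and assumed that the young library varies like them. Fewer genes passed the filter without old 1 (3901 tested), old 3 (3718) or old 4 (3703), so those counts changed in genes as well as libraries.

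Every old library was above both young ones for 785 genes (13.0%) and below both for 480 (7.93%). The genes described next are those with the smallest unadjusted p among genes without overlap that had at least 10 UMIs in each group. With this limit 34 of the 785 genes and 181 of the 480 remained eligible. None passed the adjusted threshold.

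Among genes higher in old libraries, Bmx, a kinase of arterial endothelium, stood at 288 CPM in young 1 and 149 in young 2 and at 537, 402, 797 and 903 in old 1 to old 4. The old libraries were all above the young ones (log2 fold change 1.67, SE 0.61, adjusted p = 0.763, edgeR), with 16 UMIs in young members. The log2 fold change was 2.49 without young 1 and 0.97 with the set of libraries that share barcodes as a covariate. Bmx is 1 of the genes that cut the arterial class. Selp, which tethers leukocytes, stood at 133 and 198 CPM in young and 267, 640, 211 and 344 in old libraries (log2 fold change 1.32, SE 0.65), with old 2 highest, and its log2 fold change was 2.20 with the same covariate.

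Sparc stood at 244 and 198 CPM in young and 335, 366, 613 and 500 in old libraries (log2 fold change 1.17, SE 0.57). All old libraries were above both young ones, and old 3 was highest. Arhgap31, mt-Rnr2, Rpl14 and the lysosomal protease Ctsh were the others, with log2 fold changes from 1.11 to 1.52. With the covariate Arhgap31 was at 0.75 and Rpl14 at 0.46. The mitochondrial ribosomal RNA mt-Rnr2 was highest in old 3, the library with the highest median mitochondrial share in members (5.35% against 0.752% in young 1).

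Among genes lower in old libraries, Pawr, a regulator of apoptosis, had the smallest p. It stood at 443 CPM in young 1 and 99.2 in young 2, which is 20 and 2 UMIs, and at 35.5, 36.6, 45.9 and 35.6 in old 1 to old 4. All old libraries were below both young ones (log2 fold change -2.82, SE 0.58, adjusted p = 0.462, edgeR), and the young libraries lay far apart. Without young 1 it was at -1.004, and in arterial members alone at -0.56.

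Dusp6, a phosphatase that limits ERK signaling, stood at 244 and 446 CPM in young and 57.1, 91.5, 58.0 and 64.7 in old libraries (log2 fold change -2.18, SE 0.53, adjusted p = 0.763, edgeR). The gelatinase Mmp2 stood at 177 and 149 CPM in young and 38.6, 54.9, 51.4 and 53.4 in old libraries (log2 fold change -1.63, SE 0.58). The members of young mice held 20 UMIs of Dusp6 and 11 of Mmp2. Gfod2, Rbbp7, the Wnt coreceptor Lrp6, the kinase Prkca and Pank3, which starts the synthesis of coenzyme A, had log2 fold changes from -2.13 to -1.61. Without young 1 that of Rbbp7 went from -1.88 to -0.45 and that of Lrp6 from -1.61 to -0.63, and in arterial members alone Rbbp7 was at -0.53 and Dusp6 at -1.02. With the covariate Prkca was at -1.05 and Lrp6 at -2.47. For Lrp6 the sign turned in arterial members alone (0.36), where young 1 had 1 UMI and young 2 had 3.

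**Figure D5:**
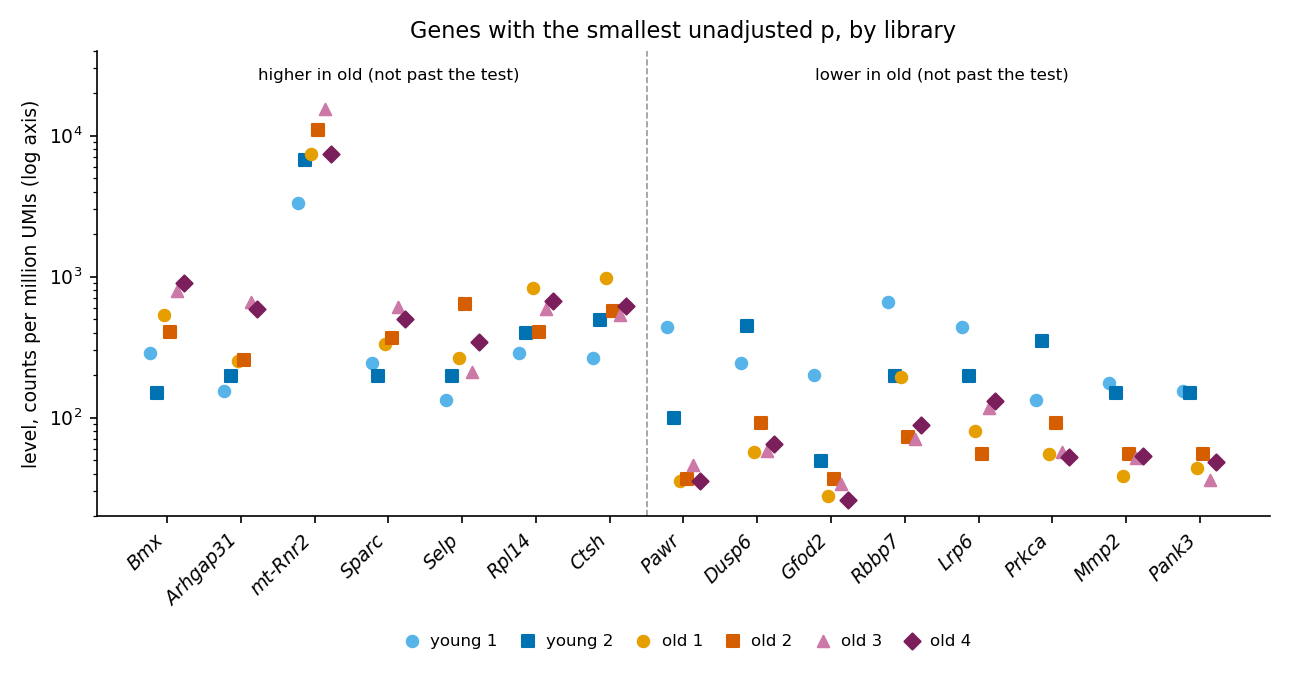
Level in members (vertical log axis, CPM) of 7 genes higher and 8 lower in old libraries, from those with the smallest unadjusted p among genes without overlap between the groups, for each library. Young libraries are in blue and old ones in warm colours, and no gene passed the adjusted test.

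By role, the lists showed the following. Of 12 tested BMP genes 12 had a higher estimate in old than in young members, and the list's median was 0.70 on the log2 scale beside 0.33 over all genes tested, of which 65.3% were higher. With the set of libraries that share barcodes as a covariate, 7 of 12 were higher, beside 53.9% of all genes tested. Smad6 was the gene of this list with an unadjusted p under 0.05 (log2 fold change 1.76, SE 0.76, adjusted p = 0.763, edgeR).

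All 6 tested MHC class II genes had a lower estimate (median -0.59), while 65.3% of all genes tested had a higher one. With the covariate 6 of 6 were lower, while 53.9% of all genes tested were higher. The summed level of the list in members was below that in free RNA in 4 of 6 libraries, as given above. The class II chain H2-Eb1 stood at 509 and 397 CPM in young and 275, 91.5, 169 and 149 in old libraries (log2 fold change -1.17, SE 0.55, unadjusted p = 0.0458 and adjusted p = 0.763, edgeR). Its old libraries were all below both young ones. The immediate early list had 12 of 17 genes lower (median -0.49), and the arterial list 8 of 11 higher (median 0.38), which became 5 of 11 with the covariate.

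Of the large artery matrix list 9 of 16 genes were higher (median 0.43), beside 65.3% of all genes tested. With the covariate 6 of 16 were higher, beside 53.9% of all genes tested. The VEGF and angiopoietin list had 6 of 8 higher (median 1.20). It included Nrp1, a coreceptor for VEGF, at 133 and 99.2 CPM in young and 173, 220, 665 and 637 in old libraries (log2 fold change 1.96, SE 0.73, adjusted p = 0.763, edgeR). Each UMI was worth 22.1 CPM in young 1 and 49.6 in young 2, so these young values rest on few UMIs. Nrp1 was also higher in microvascular than in arterial members, at 1119 against 603 CPM in old 3 and 1587 against 582 in old 4. Vegfc, also in the list, stood at 0 UMIs in both young libraries and 37.8, 110, 134 and 120 CPM in old ones. A count of 0 allowed up to 66.4 CPM in young 1 and 149 in young 2. A difference in Vegfc was therefore not detectable against young 2, nor for old 1 against young 1. The heart and systemic list had 5 of 6 higher (median 1.68). Its gene Fabp4 stood at 310 and 99.2 CPM in young and 246, 1482, 3308 and 1680 in old libraries, so that old 1 lay within the young range. In old 3 the microvascular members held 8341 of its 9585 UMIs, and Fabp4 stood at 20075 CPM in them against 487 in arterial members. In old 4 it stood at 24683 CPM in microvascular against 319 in arterial members.

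The senescence and cell cycle arrest list had 8 of 11 higher (median 0.82). For this and the lists that follow, 65.3% of all genes tested were higher (median 0.33). Cdkn1a (p21) stood at 487 and 347 CPM in young and 743, 695, 167 and 159 in old libraries, above the young libraries in old 1 and old 2 and below them in old 3 and old 4. Cdkn1b and Cdkn1c, both among the 8, had 0 UMIs in young members, with old values of at most 75.0 CPM. A count of 0 allowed up to 66.4 CPM in young 1 and 149 in young 2. A difference in Cdkn1b, at 34.0 to 46.9 CPM in old libraries, was thus not detectable. Cdkn1c was at 0 in old 2 and exceeded the limit of young 1 only in old 4. For the interferon response 7 of 10 tested genes were higher (median 0.48), for mesenchymal transition 6 of 11 (median 0.52), for Notch 6 of 11 (median 0.10), for junctions 4 of 11 (median -0.07), for flow response 4 of 10 (median -0.21) and for hemostasis 3 of 9 (median -0.19). An age comparison of microvascular members could not be made, since neither young library held 10 of them.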

How the data were processed

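Single cell RNA sequencing was done on 6 libraries, 2 young and 4 old. A further young library was not used here. The authors trimmed reads with Cutadapt, mapped them with STARsolo to GRCm38.p6 and deposited raw UMI counts per gene and barcode, for 53647 genes and unfiltered. Total UMIs were 9487564 and 6355125 in young 1 and young 2 and 7042921, 12851645, 50436562 and 36218542 in old 1 to old 4.

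Gene lists and the choice of members were made with earlier results of these data known. Counts were summed over members per library and compared with edgeR 4.0.16 (quasi-likelihood test with robust fitting and TMM normalization, p-values adjusted by Benjamini-Hochberg) in R 4.3.3, for genes with a count in over 5% of members in at least 3 libraries; the replicate is the library. DESeq2 1.42.0 was an alternative. The step was tested on simulated data. Single values per library were compared by exact permutation. Members were clustered with scanpy 1.11.5 (1500 variable genes, 30 principal components, 15 neighbours, leidenalg 0.10.2 at resolution 0.5). Doublets were marked by scrublet, or as a top share of 0.8% per 1000 barcodes where it marked under 0.5% of a library.

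Genes named are the selection and class genes, the most abundant genes of each list, 15 leading genes, 8 genes in each direction between classes (at least 50 CPM, ratios with 10 CPM added) and 8 in each direction for age among genes without overlap and with at least 10 UMIs per group, of which 1 gene is not reported here. Other list, subcluster and alternative-setting genes were chosen after their values were seen. Alternatives were other cell, gene and doublet filters, no TMM, thinning to 500 UMIs, sex or library set as covariates, arterial members only and leaving out each library.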

Additional observations from a re-analysis of the deposited data

Results flagged for a closer look

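In 3 of 45 single-gene or per-library values tested over the 4 old libraries, 1 library stood far from the rest (Dixon's criterion at 95%, which flags about 1 in 20 groups by chance). Pawr was 45.9 CPM in old 3, with the other old libraries between 35.5 and 36.6. Rbbp7 was 194 CPM in old 1, against 88.1 in the next. Prkca was 91.5 CPM in old 2, which is 5 UMIs, against 56.6 in the next. All 3 values were below both young libraries, as the choice of these genes required.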

How the results depend on the processing

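The difference in the share of members between old and young libraries kept its sign under each alternative except within the libraries that share barcodes, where it was -0.123 points. The arterial share of assigned members kept its sign under each alternative run, from -12.6 points without Sox17 and Mecom to -3.61 points without old 3. The cause was not tested.

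The number of genes past an adjusted p of 0.05 (edgeR, Benjamini-Hochberg) was 0 in 10 of 16 alternatives, DESeq2, no TMM, thinning and the library set as a covariate among them. It was 16 with no gene filter and 9 with sex as a covariate, where Fabp4, Cp and Serpinb6b were higher and Pthlh, Fosb, Pawr, Syne3, Gm10736 and Egr3 lower in old libraries; the sex of old 1 is in doubt. It was 1 in arterial members only (Dcn, 0 UMIs in young arterial members). Leaving out each library gave from 0 to 3 genes: 2 without old 2 (Gm10800 and Gm10801), 3 without old 3 (Cp, Pawr and Serpinb6b) and 3 without old 4 (Gm10801, Hbb-bs and Serpinb6b). Cp and Serpinb6b had 0 UMIs in young members. Of 247 values of the 16 named genes under alternatives, 244 kept sign and side of the threshold, Pawr passed in 2, and Lrp6 turned to 0.36 on the log2 scale in arterial members only.

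With at least 1000 UMIs and 500 genes no young library kept 10 members, so the gene test and the arterial share were not run. With at least 5 endothelial UMIs young 2 kept fewer than 10 members, so this gene test, like those without young 1 or young 2, had 1 young library, assumed to vary like the old ones. No paired analysis was possible because replicate numbers of the libraries only name samples. The depth of the young libraries, 88 members in all, limits every age comparison.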
